A study of Mus musculus with 48 samples.

Results

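Iron uptake, export, storage and hepcidin genes were followed in 6 mouse tissues 9 days after Roux-en-Y gastric bypass (RYGB). The group holds 10 genes, taken by symbol from the tissue tables with 1 row for each Ensembl identifier, of 15541 genes listed in any table. All mice were male C57Bl6 with diet-induced obesity from a high fat diet. They underwent RYGB, which joins a small gastric pouch to the jejunum so that food no longer passes the duodenum, or sham surgery. Both groups then received a liquid elemental diet and were fasted overnight before they were killed at 10 am on day 9. There were 48 libraries. Liver, skeletal muscle and subcutaneous fat (white adipose tissue, WAT) gave 4 RYGB and 4 sham libraries each, the ileum gave 5 and 5, and duodenum and jejunum both gave 3 RYGB and 4 sham libraries. The gut samples were villi scraped after a short bath in cold EDTA, and all libraries were stranded mRNA libraries. The labels number the libraries within each group and give no further detail of the animals, so p-values measure the spread between these libraries.

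Dietary iron enters the body through enterocytes of the proximal small intestine. Cybrd1 reduces iron at the brush border, Slc11a2 (DMT1) carries it into the cell, Slc40a1 (ferroportin) exports it into blood, and Heph (hephaestin) oxidises it on the way out. Trf (transferrin) carries iron in plasma, Tfrc (transferrin receptor) takes it up, and Fth1 and Ftl1 are the heavy and light chains of ferritin, which stores it. Hamp encodes hepcidin, a liver peptide hormone that binds ferroportin and causes its degradation, and Bmp6 is a ligand that raises Hamp transcription when iron is plentiful. Much of this control acts on mRNA and protein, so a gene's mRNA level is only part of its regulation.

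Iron regulatory proteins bind a hairpin, the iron-responsive element, in some of these mRNAs. In a 5' UTR the bound protein blocks translation, and in the 3' UTR of Tfrc it protects the mRNA from decay. A search of annotated UTRs (GENCODE M21, GRCm38, transcript strand) for a C, 5 letters, CAGTGN and 5 letters that pair with the first 5 found a match in 4 of the 10 genes. Such a match was present in 160 of 21842 protein-coding genes (0.733%). The matches are printed because they divide the group into genes whose mRNA level the element can and cannot stabilise. Capitals mark the 6-base loop.
Fth1, 5' UTR, chr19:9982733-9982759, plus strand: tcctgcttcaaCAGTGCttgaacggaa
Ftl1, 5' UTR, chr7:45459780-45459806, minus strand: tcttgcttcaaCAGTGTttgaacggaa
Slc40a1, 5' UTR, chr1:45925466-45925492, minus strand: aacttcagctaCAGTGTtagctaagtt
Tfrc, 3' UTR, chr16:32631220-32631246, plus strand: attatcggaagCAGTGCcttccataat
Tfrc, 3' UTR, chr16:32631599-32631625, plus strand: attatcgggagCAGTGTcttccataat
Tfrc, 3' UTR, chr16:32631664-32631690, plus strand: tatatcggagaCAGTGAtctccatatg
Tfrc, 3' UTR, chr16:32631711-32631737, plus strand: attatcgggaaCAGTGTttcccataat
The search matched 1 element in the 5' UTR of both ferritin chains and of ferroportin, and 4 in the 3' UTR of Tfrc. Elements that depart from these letters or this pairing are not counted. One mRNA form of Slc11a2 is known to hold an element in its 3' UTR that these letters did not find, and the tables do not separate its forms.

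Hamp lies on chromosome 7 (30942368 to 30944032, minus strand) beside its near-identical copy Hamp2 (30922372 to 30924681, minus strand). The promoters of this pair are printed because Hamp and Hamp2 took different values in the same livers. Both windows hold 250 bases and end at the start site given by RefSeq (GRCm38.p6). The Hamp2 window lies wholly inside the Hamp2 span given above, whose start on the minus strand is 30924681. The start sites behind that span and that window therefore differ. Positions before the start are counted from the RefSeq start, and which start is used in these livers was not tested. Capitals mark the letters GGCGCC, the core of the BMP response element, and TTCNNNGAA, the core bound by STAT3, searched on both strands.
Hamp, chr7:30944030-30944279, minus strand: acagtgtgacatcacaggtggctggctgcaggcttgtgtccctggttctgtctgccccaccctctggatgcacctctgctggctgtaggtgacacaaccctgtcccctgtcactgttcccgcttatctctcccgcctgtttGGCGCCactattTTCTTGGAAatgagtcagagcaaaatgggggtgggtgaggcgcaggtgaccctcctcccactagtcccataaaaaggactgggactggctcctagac
Hamp2, chr7:30924182-30924431, minus strand: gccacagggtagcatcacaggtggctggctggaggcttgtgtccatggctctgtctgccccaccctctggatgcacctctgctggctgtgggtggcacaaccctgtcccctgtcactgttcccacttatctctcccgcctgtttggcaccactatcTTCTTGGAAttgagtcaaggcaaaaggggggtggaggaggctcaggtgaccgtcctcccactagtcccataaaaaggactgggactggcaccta
The windows were identical at 227 of 247 aligned bases (91.9%). Hamp held both motifs, with first bases 109 and 97 before the start. Hamp2 held the STAT3 core only, 94 before the start, since its copy of the BMP core carried G4A, counted from 1 at the 5' end of the motif. GGCGCC was found in 9.59% and TTCNNNGAA in 7.02% of 32851 promoters. A match is a string of letters and was not tested as a binding site here.

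The values are CPM as deposited, the reads of a gene relative to all counted reads of its library. RYGB and sham libraries were compared within each tissue by limma on log2(CPM + 1), adjusted over all genes tested with the Benjamini-Hochberg method. A differentially expressed gene (DEG) had an adjusted p under 0.05 and a fold change of at least 1.5. Over the 6 tissues, 45 of 60 combinations of gene and tissue had a row, 44 could be tested, and 5 were DEGs. Hamp had a row in liver only, Trf and Bmp6 had rows in liver, WAT and muscle, and Cybrd1 had rows in WAT and muscle. The other combinations were not analysed here, Cybrd1 in the duodenum among them. The defining markers of each labelled tissue were above 0 CPM in every library. The tables give no read totals, so the depth of the libraries is unknown. Over all genes tested, the log2 fold change had a median of 0.12 in the duodenum, 0.13 in liver, 0.11 in WAT, 0.05 in muscle, -0.04 in the jejunum and -0.09 in the ileum.

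The tissue tables were normalised separately, so the order of tissues is a description without a test. Slc40a1 was highest in the duodenum, at 982.2 ± 1049 CPM (mean ± SD, n = 4), followed by liver at 193 ± 38.2 CPM. Duodenum and liver libraries overlapped in range for Slc40a1, whereas every liver library stood above every WAT library, at 52.8 ± 16 CPM. Muscle followed at 38.1 ± 10.6 CPM, overlapped with WAT and stood above every jejunum library. Slc40a1 was lowest in the jejunum (7.25 ± 9.27 CPM) and ileum (2.44 ± 1.21 CPM, n = 5), which overlapped with each other.

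Slc11a2 was also highest in the duodenum, at 415.2 ± 524.2 CPM, and the ileum (88.6 ± 28.4 CPM) and jejunum (68.2 ± 14.6 CPM) overlapped with each other, and the ileum with the duodenum. Every jejunum library stood above muscle. Muscle (42.2 ± 1.69 CPM), WAT (42.0 ± 3.36 CPM) and liver (37.2 ± 4.70 CPM) had similar levels, with neighbours overlapping. Heph was high along the whole gut, at 704.6 ± 81.6 CPM in the ileum, 605.5 ± 131.2 CPM in the jejunum and 596.3 ± 78.9 CPM in the duodenum, with neighbours overlapping. Heph in WAT had 107 ± 18.3 CPM, and muscle (3.17 ± 3.36 CPM) and liver (1.95 ± 0.58 CPM) were low and overlapped. Ferroportin was thus concentrated at the start of the gut, while its partner Heph was present in all 3 gut segments.

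Tfrc was highest in muscle, at 356.4 ± 66.2 CPM, above every library of the next tissue. Liver (51.6 ± 14.8 CPM), WAT (38.1 ± 3.70 CPM), ileum (33.2 ± 20.9 CPM), jejunum (23.1 ± 10.8 CPM) and duodenum (21.5 ± 6.41 CPM) followed in that order for Tfrc, with each neighbour overlapping. The duodenal level of Fth1, 9477 ± 3449 CPM, stood above every library of the jejunum (2959 ± 1266 CPM). The jejunum and, in descending order, WAT (1679 ± 226 CPM), muscle (1358 ± 75.7 CPM), liver (1272 ± 228 CPM) and ileum (1064 ± 272.7 CPM) overlapped with their neighbours for Fth1. Ftl1 ran in another order, from 219 ± 35.9 CPM in WAT and 183.2 ± 14.4 CPM in liver through 125.8 ± 39.6 CPM in the duodenum, 95.7 ± 21.5 CPM in the jejunum and 57.9 ± 8.09 CPM in the ileum to 14.2 ± 2.82 CPM in muscle. The first 4 of these overlapped with their neighbours, and the ileum and muscle stood apart. Ftl1 had up to 4 identical lines in a table because its identifier is paired with several symbols of the ferritin light chain family, so how reads were shared among copies is uncertain.

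Trf had 1872 ± 1010 CPM in liver, 169.1 ± 27.6 CPM in WAT and 4.93 ± 5.66 CPM in muscle, without overlap between neighbours. Bmp6 was highest in WAT (40.1 ± 4.41 CPM), followed without overlap by muscle (8.28 ± 0.95 CPM) and liver (2.15 ± 0.91 CPM). Hamp had 174.4 ± 114.8 CPM in liver. Cybrd1 was near the lower limit in both tissues that list it, with 1.3 ± 1.36 CPM in WAT and 0.82 ± 0.62 CPM in muscle, and the ranges overlapped. Levels of different genes were compared per kilobase of merged exons. This length joins the exons of all annotated forms, with 0.41 kb for Hamp, 3.469 kb for Fth1 and 9.0 kb for Slc40a1. It can exceed the length of the mRNA that a tissue makes, so the order of genes depends on this choice of length. On that scale, sham liver ranked Trf (564 CPM per kb), Hamp (425), Fth1 (367) and Ftl1 (137) above Slc40a1 (21.4), Tfrc (8.34), Slc11a2 (5.86), Bmp6 (0.551) and Heph (0.255) by their means. The ranges of Trf, Hamp and Fth1 overlapped, as did those of Tfrc and Slc11a2 and of Bmp6 and Heph, and without sham 1, a choice made after seeing the data, Hamp (516 CPM per kb) stood above Trf (418). Sham duodenum ranked Fth1 (2730 CPM per kb) above Slc40a1 (109), Ftl1 (93.9), Heph (77.8), Slc11a2 (65.3) and Tfrc (3.47) by their means. The middle of that order rested on sham 1. Over the 4 libraries Slc40a1 spanned from 2.99 to 274 and Slc11a2 from 12.8 to 188 CPM per kb, across the ranges of Ftl1 and Heph. In the same way, without sham 1, Ftl1 (79.8) and Heph (77.2) stood above Slc40a1 (54.1) and Slc11a2 (24.3).

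**Figure D1:**
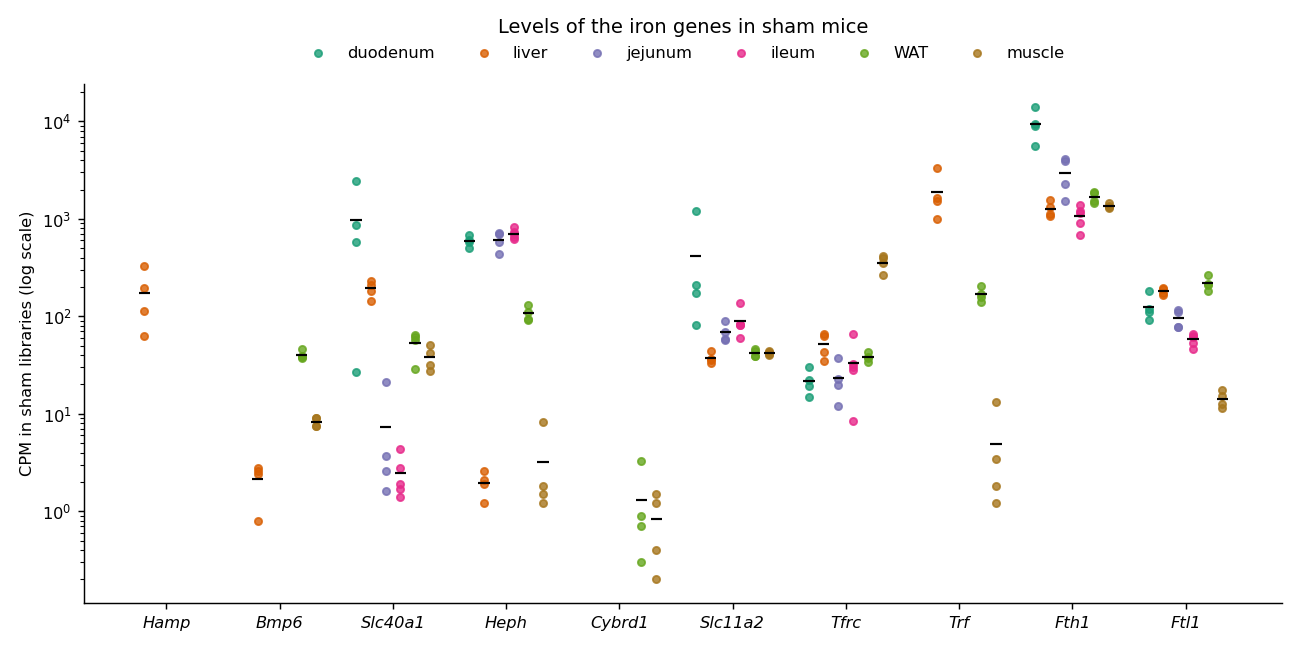
CPM of the 10 genes in the sham libraries on a log axis, with 1 point per library, colours for the 6 tissues and a short black line at the mean (n = 5 in the ileum, n = 4 elsewhere). Slc40a1 spanned from 26.9 to 2468.1 CPM in the duodenum, and Trf and Bmp6 stood apart between the tissues that list them.

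The duodenum was examined because RYGB excludes it from the passage of food. None of the 6 genes with a row was a DEG there, where 1 of 10850 genes was called (0.00922%), the detoxifying enzyme Ephx1, named here after its values were seen. At an unadjusted p under 0.05 there were 2 of the 6 genes and 18.8% of all genes. Tfrc and Ftl1 were the 2 genes whose groups did not overlap, against 15.6% of all genes. The duodenal libraries also differed within each group. Pdx1, a transcription factor of the proximal duodenum and pancreas, had 16.9, 50.2 and 75 CPM in RYGB libraries 1 to 3 and 159.9, 65.8, 47.3 and 14.5 CPM in sham libraries 1 to 4. Cela1, the only one of 9 pancreatic acinar markers with a row, had 5.9, 11.7 and 517.5 CPM in the RYGB libraries and 1978.8, 4817.2, 9.8 and 7.1 CPM in the sham libraries. RYGB 1 and sham 4 were thus lowest in Pdx1, and RYGB 3, sham 1 and sham 2 held Cela1 above 100 CPM.

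Tfrc had 81.1, 46.1 and 65.4 CPM in RYGB libraries 1 to 3 and 19.1, 14.8, 30 and 22 CPM in sham libraries 1 to 4. Every RYGB library was above every sham library for this receptor, which brings transferrin-bound iron into dividing crypt cells. The difference was 1.54 ± 0.26 on the log2 scale (SE, 95% interval 0.95 to 2.14), a 2.91-fold higher level, with an adjusted p of 0.104 by limma. Leaving out sham 4 made Tfrc a DEG (1.57, adjusted p = 0.0257 by limma), in a fit that called 757 genes. Adjusted p-values for Tfrc ranged from 0.0257 to 0.582 over 12 alternative fits, the largest without the 3 libraries with Cela1 above 100 CPM, where the difference was 1.22. Crypt and Paneth cell markers had higher values in the same libraries, and none was a DEG. The sum of the 4 of 5 markers with a row was 79.1 to 214.1 CPM in RYGB and 26.3 to 58.3 CPM in sham libraries, with none at 0. Olfm4, a crypt stem cell marker, had 57.2, 7.9 and 26.4 CPM in RYGB and 5.8, 0.6, 5.0 and 6.9 CPM in sham libraries. The proliferation marker Mki67 had 36.1, 9.6 and 11.9 CPM in RYGB and 3.9, 1.7, 8.1 and 6.1 CPM in sham libraries. Immune cell markers were also higher without a DEG. The sum of the 3 of 8 B and T cell markers with a row was 26.5 to 60.2 CPM in RYGB and 8.1 to 31.4 CPM in sham libraries. That of the 5 of 15 macrophage markers with a row was 16.1 to 38.5 CPM and 4.6 to 19.5 CPM. All 8 of these had positive differences, and none was at 0 in any library. A gene could be listed with 1 CPM in 3 libraries, which the RYGB group alone can supply. The shared direction of these crypt and immune markers is therefore no support for a change. The 8 enterocyte markers, none a DEG, summed to 39420 to 50250 CPM in RYGB and 53520 to 66960 CPM in sham libraries, none at 0. Of these, 6 had lower and 2 higher means in RYGB, Vil1 (3413 against 2612 CPM) and Lct (3264 against 2056 CPM), and the abundant Apoa4 and Fabp1 weighed most on the lower sums. The part of these cells in the Tfrc difference was not tested. In bulk tissue, a change in the number of cells of a type and a change of RNA per cell cannot be told apart.

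Both ferritin chains had lower values in the bypassed duodenum. Ftl1 had 64.8, 68.5 and 69.5 CPM in RYGB and 182.6, 111, 118.7 and 90.9 CPM in sham libraries, with every RYGB library below every sham library. The log2 difference of Ftl1 was -0.84 ± 0.22 (adjusted p = 0.146 by limma), and it was -0.98 (adjusted p = 0.0305) without sham 4. Fth1 had 2839.2, 6813.4 and 6507.3 CPM in RYGB and 13960.9, 9402.4, 8985.5 and 5559.8 CPM in sham libraries, and the groups overlapped through sham 4. The log2 difference of Fth1 was -0.84 ± 0.45 (95% interval -1.87 to 0.18, adjusted p = 0.344 by limma), and it was -0.43 without RYGB 1. Neither chain passed the test on all 7 libraries. The lower sums of the enterocyte markers, to which Vil1 and Lct ran opposite, accompanied both chains, and their part was not tested. The other iron lists held no DEG in the duodenum, among them 7 other iron transporters and reductases, 9 genes of iron sensing and ferritin turnover, 16 haem genes and 10 genes of the BMP arm of hepcidin control.

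The exporter Slc40a1 spread more than any other gene of the group. It had 25.2, 349.7 and 409.2 CPM in RYGB and 2468.1, 577.7, 855.9 and 26.9 CPM in sham libraries, so that the highest sham library held 91.8 times the lowest. The lowest library of each group, RYGB 1 or sham 4, had nearly the same level. The log2 difference was -1.47 ± 1.52 (95% interval -4.94 to 2.01, adjusted p = 0.627 by limma), an interval too wide to show a difference in either direction. Without RYGB 1 the difference was -0.18, and without sham 4 it was -2.78 (adjusted p = 0.143 by limma), so its size rested on the lowest library of each group. Slc11a2, the importer, had 99, 219 and 242 CPM in RYGB and 1197.3, 209.6, 172.3 and 81.4 CPM in sham libraries. Sham 1 alone was high, and the log2 difference of -0.49 ± 0.80 (95% interval -2.31 to 1.34, adjusted p = 0.776) became 0.28 without that library and 0.31 without the 3 libraries with Cela1. Heph had 455, 655.2 and 544.6 CPM in RYGB and 611.1, 499.4, 690.7 and 583.9 CPM in sham libraries. The groups overlapped for Heph, with a log2 difference of -0.12 ± 0.19 (95% interval -0.55 to 0.31, adjusted p = 0.767 by limma).

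**Figure D2:**
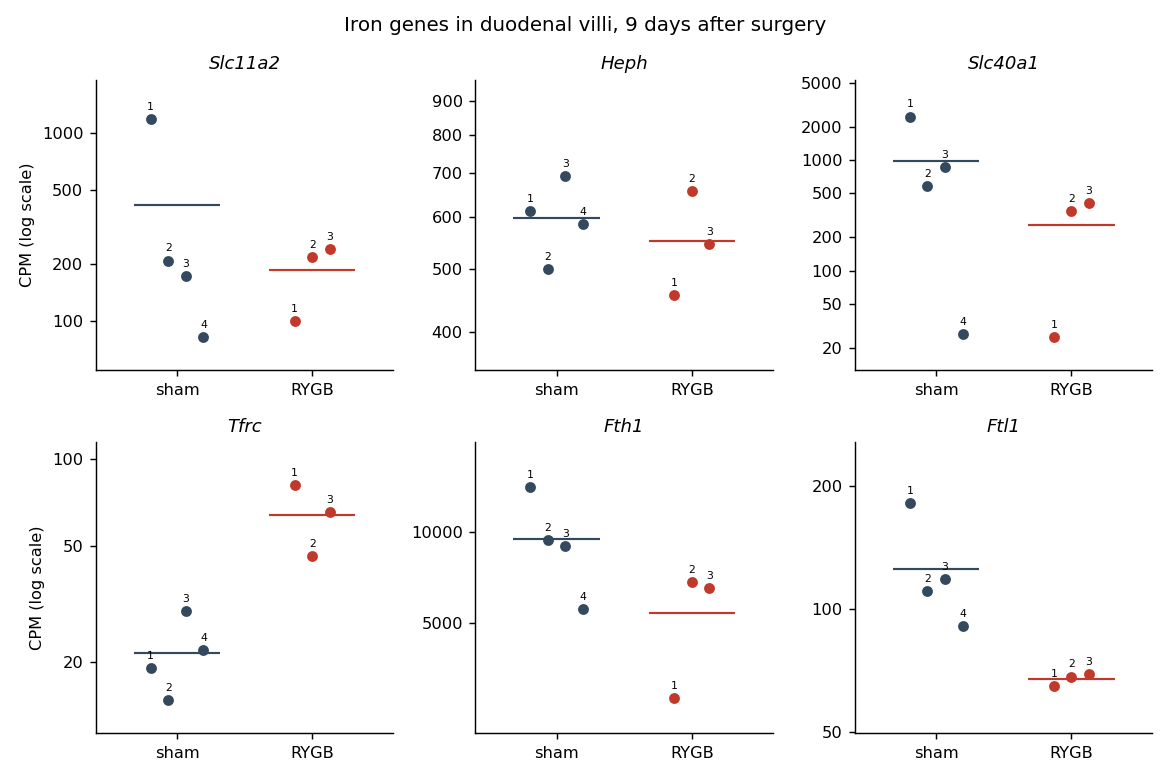
CPM of the 6 iron genes in duodenal villi on log axes, 1 numbered point per library (sham n = 4, RYGB n = 3) and a line at the group mean. Tfrc lay above and Ftl1 below the sham range in all 3 RYGB libraries, whereas Slc40a1, Slc11a2 and Fth1 followed the individual library, with sham 1 highest.

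Ferroportin, the importer and ferritin heavy chain followed Pdx1 from library to library. Over the 7 duodenums, Pearson's r of log2(CPM + 1) with Pdx1 was 0.949 for Slc40a1, 0.929 for Slc11a2, 0.833 for Fth1, 0.596 for Ftl1, 0.308 for Heph and -0.32 for Tfrc. These are descriptions over 7 libraries of both groups that share a normalisation, and they carry no p. Lactase (Lct), an enzyme that peaks in the jejunum, had r of -0.676 with Slc40a1. The acinar marker Cela1 had r of 0.649 with Slc40a1 and 0.779 with Pdx1. A search of genes like Cybrd1 was not made here, and Slc40a1 took its place after values were seen. With a minimum of 5 CPM on the mean, Elovl6 (r = 0.992), Tmprss15 (0.985), Zdhhc2 (0.981), Slc19a3 (0.980) and Tmem126b (0.970) were most like Slc40a1. Tmprss15 is enteropeptidase, a brush-border enzyme of the proximal duodenum. The part that the position of the sample along the duodenum, or pancreatic tissue in the sample, played in these values was not tested.

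**Figure D3:**
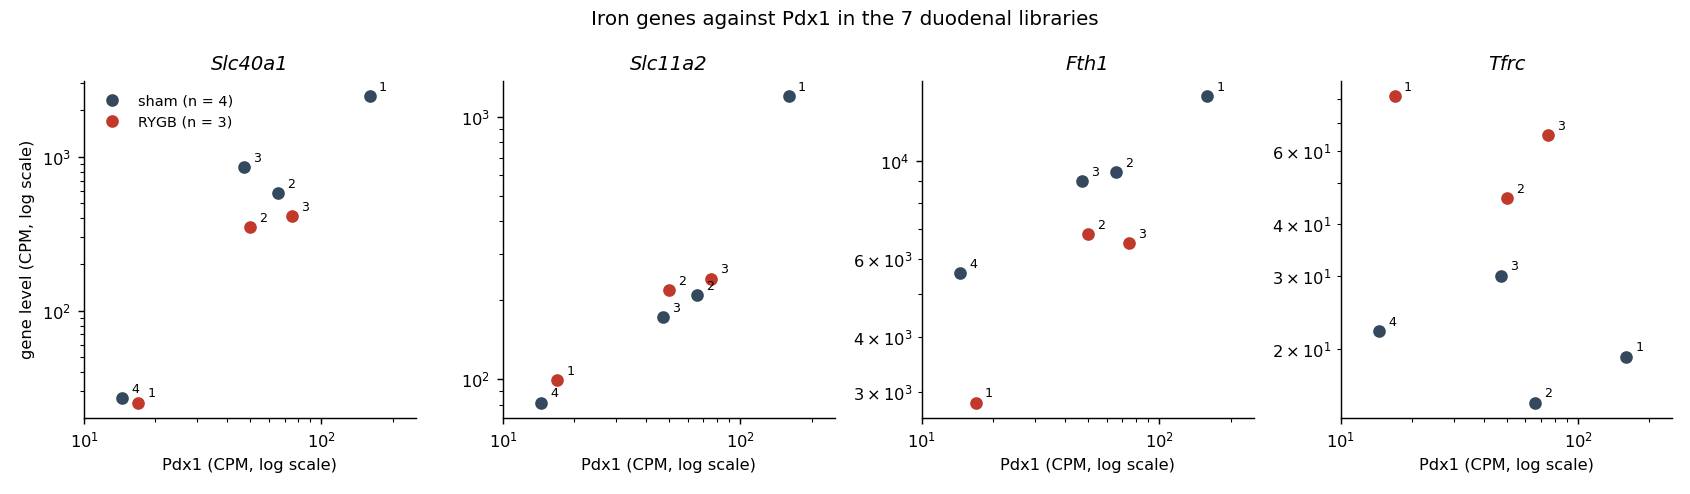
CPM of Slc40a1, Slc11a2, Fth1 and Tfrc against CPM of Pdx1 in the 7 duodenal libraries, both axes on log scales, with points numbered by library and coloured by surgery. RYGB 1 and sham 4 stood at the lower left for Slc40a1 and Slc11a2, and sham 1 stood at the upper right. Tfrc was higher in every RYGB than in every sham library, and no RYGB library reached the Pdx1 level of sham 1.

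Liver was examined as the source of hepcidin and transferrin and as the main iron store. Of the 9 genes with a row, 1 was a DEG, the importer Slc11a2, against 7.08% of 11807 genes tested and 5.79% called higher. At an unadjusted p under 0.05 there were 6 of 9 genes, against 26.9% of all genes. The median log2 fold change of the 9 genes was 0.46, beside 0.13 for all genes. All 9 differences were above 0 as deposited, although Hamp had a difference of -0.049 when each library was scaled by its median ratio. Scaling also moved the split of DEGs in liver from 684 higher and 152 lower to 448 higher and 228 lower.

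Slc11a2 had 56.2, 106.5, 65.5 and 68.2 CPM in RYGB livers 1 to 4 and 43.9, 35.8, 32.9 and 36.3 CPM in sham livers 1 to 4. Every RYGB liver was above every sham liver. The log2 difference was 0.94 ± 0.18 (95% interval 0.54 to 1.34), a 1.92-fold higher level with an adjusted p of 0.0139 by limma. It remained a DEG in all 13 alternative fits, with differences from 0.75 to 1.06 and adjusted p from 0.00893 to 0.0417. Within the 3 sequencing lanes that held both groups, with 1 or 2 libraries of a group in each, the differences were 0.64, 1.6 and 0.59. Besides its role in enterocytes, Slc11a2 moves iron out of endosomes in cells that take up transferrin. RYGB 2 was highest, and without it the difference was 0.75 (adjusted p = 0.0119 by limma).

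The exporter Slc40a1 did not overlap between the groups either, as was the case for 16.4% of all genes. It had 268.2, 478.3, 252.1 and 270.3 CPM in RYGB and 144.5, 183.4, 233 and 211.3 CPM in sham livers. The log2 difference of 0.68 ± 0.21 had an adjusted p of 0.0703 by limma. With lane as a covariate it was 0.86 (adjusted p = 0.00703), and without RYGB 2 it was 0.47 (adjusted p = 0.127). Within the lanes it was 0.55, 1.1 and 0.85. RYGB 2 was also the liver with the highest macrophage markers, cells that export iron through ferroportin. The 15 markers summed to 1412, 4152, 1430 and 1599 CPM in RYGB and 723.4, 1300, 1140 and 1147 CPM in sham livers, with none at 0. Of these markers Cd68 (1.03 ± 0.22, adjusted p = 0.0206) and Lyz2 (1.81 ± 0.30, adjusted p = 0.00894) were DEGs, both higher by limma. The sum of 7 sinusoidal endothelial markers was 255.7 to 419.4 CPM in RYGB and 111.6 to 303.6 CPM in sham livers, and none of the 7 was a DEG. The part of either cell type in the Slc40a1 and Slc11a2 differences was not tested.

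Hamp did not differ detectably. It had 223.7, 212.1, 176.9 and 71.3 CPM in RYGB and 62.6, 113.1, 325.3 and 196.7 CPM in sham livers. RYGB 4 and sham 1 were low, sham 3 was high, and the groups overlapped over most of their range. The log2 difference was 0.10 ± 0.48 (95% interval -0.96 to 1.16, adjusted p = 0.914 by limma). Leaving out a single liver moved the difference between -0.30 and 0.48, and within lanes it was 0.98, -0.25 and 0.83. Hamp2 had 11.9, 1.4, 0.6 and 1.4 CPM in RYGB and 2.9, 14.9, 48.3 and 32.2 CPM in sham livers. Its log2 difference was -2.43 ± 0.79 with an adjusted p of 0.0766 by limma, and the groups overlapped because RYGB 1 was high and sham 1 low. Reads of Hamp and Hamp2 can be confused because the genes are near-identical, and the counting of such reads is not given in the sources used here.

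Genes above Hamp in its control were measured beside it. Bmp6, made in liver chiefly by sinusoidal endothelium, had 2.7, 4.2, 3.1 and 3.7 CPM in RYGB and 0.8, 2.4, 2.6 and 2.8 CPM in sham livers. Sham 1 stood alone at the low end, and the log2 difference of 0.54 ± 0.24 (adjusted p = 0.176 by limma) was 0.29 without it. The BMP arm of hepcidin control had 15 genes tested and no DEG in either direction, with a median log2 fold change of 0.13. Among them the iron sensor Tfr2 had a difference of -0.18 ± 0.10, Hfe 0.29 ± 0.14, Hfe2 (hemojuvelin) 0.10 ± 0.11 and the hemojuvelin protease Tmprss6 0.032 ± 0.12, with adjusted p from 0.213 to 0.884 by limma. Of 6 BMP target genes other than Hamp, Atoh8 alone was a DEG (0.66 ± 0.17, adjusted p = 0.0388 by limma). Of 15 STAT3 and acute phase genes, 3 were DEGs, all higher, namely Saa3 (2.58 ± 0.38), Lcn2 (2.28 ± 0.61) and the receptor subunit Il6ra (0.96 ± 0.21). The list as a whole had 9 differences above and 6 below 0, with a median of 0.15 beside 0.13 for all genes.

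Over the 8 livers the genes most like Hamp were Zkscan6 (Pearson's r = 0.979), Mettl17 (0.955), Zbtb22 (0.928), Vmac (0.900) and Nr3c2 (0.896), on log2(CPM + 1). Hamp2 had r of 0.493 with Hamp, Slc40a1 0.467, Smad6 0.456, Atoh8 0.176 and Saa1 -0.63. These values describe 8 libraries of both groups and carry no test.

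Transferrin and ferritin had higher means in RYGB livers without being DEGs. Trf had 3384.2, 4084.9, 2197.3 and 2385.9 CPM in RYGB and 3325.7, 1524.3, 1646.7 and 990.5 CPM in sham livers. Sham 1 lay within the RYGB range, and the log2 difference of 0.78 ± 0.34 (adjusted p = 0.165) was 1.11 without it (adjusted p = 0.0529 by limma). Within the lanes Trf differed by 1.15, 1.68 and -0.54, so the direction was not the same in every lane. Fth1 had 1758.6, 2005.2, 1563.4 and 1640.4 CPM in RYGB and 1311.6, 1069.8, 1577 and 1129 CPM in sham livers, a log2 difference of 0.46 ± 0.16 (adjusted p = 0.0957). Only RYGB 3 and sham 3 overlapped for this storage protein. Ftl1 had 280.3, 285.7, 168.5 and 238 CPM in RYGB and 192.9, 175.4, 197.5 and 167 CPM in sham livers, a log2 difference of 0.38 ± 0.16 (adjusted p = 0.163 by limma). Tfrc ranged from 56.1 to 73.9 CPM in RYGB and from 35.2 to 65.6 CPM in sham livers (0.33 ± 0.19, adjusted p = 0.293 by limma). Heph stayed under 5 CPM in every liver (0.45 ± 0.23, adjusted p = 0.242 by limma).

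**Figure D4:**
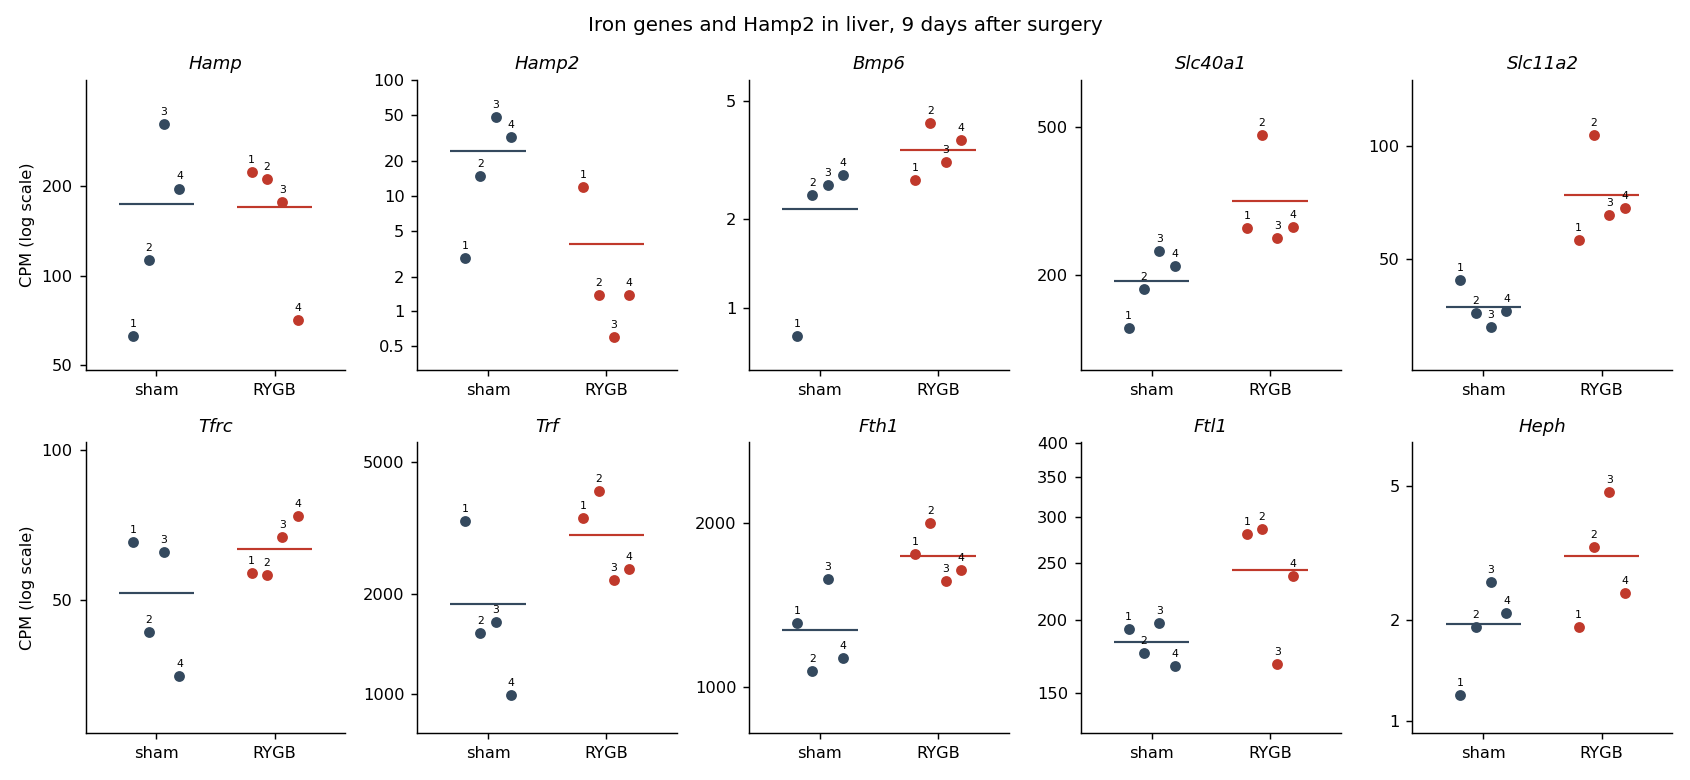
CPM of the 9 iron genes with a row in liver and of Hamp2, on log axes, 1 numbered point per library (n = 4 for each surgery) and a line at the group mean. Slc11a2 and Slc40a1 separated by surgery, the RYGB values of Hamp lay within its sham range, and RYGB 2 was highest for Slc40a1, Slc11a2, Trf, Fth1, Ftl1 and Bmp6.

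Other iron genes of the liver were counted from lists, to be read against the 7.08% of all genes called there. Of 13 other iron transporters and reductases tested, 3 were DEGs and all 3 were higher. The plasma ferroxidase Cp (ceruloplasmin) had 2614.8, 4820, 3094.3 and 3077.3 CPM in RYGB and 1680.9, 1594.5, 1385.5 and 1796 CPM in sham livers (1.04 ± 0.20, adjusted p = 0.0145 by limma). The metalloreductase Steap4 rose by 1.44 ± 0.23 (adjusted p = 0.00697 by limma), and the siderophore-binding protein Lcn2 is the one named above. None of 9 genes of iron sensing and ferritin turnover was a DEG, and of 18 haem genes only the transporter Flvcr2 was, with 8.90 ± 1.73 CPM in RYGB and 3.20 ± 0.67 CPM in sham livers. Of 5 erythroid markers tested, Alas2, the erythroid enzyme of haem synthesis, was lower (65.5 ± 4.25 against 139 ± 25.2 CPM, adjusted p = 0.00209 by limma). The other 4 were not DEGs, and the 5 markers summed to 136.4 to 468.2 CPM in RYGB and 246.7 to 918.5 CPM in sham livers. Of 10 hypoxia target genes, Pdk1, which inhibits pyruvate dehydrogenase, was lower (-0.78 ± 0.16, adjusted p = 0.0170 by limma).

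The jejunum and the ileum were compared because they receive food earlier after RYGB. None of the 6 genes tested in the jejunum was a DEG, against 9.75% of 10854 genes, and 0 of the 6 had an unadjusted p under 0.05, against 24.6% of all genes. The groups of all 6 overlapped, whereas those of 22.2% of all genes did not. Tfrc had 22.4, 34.3 and 84 CPM in RYGB and 12, 19.8, 37.7 and 22.9 CPM in sham libraries, with a log2 difference of 0.88 ± 0.45 (adjusted p = 0.263 by limma). RYGB 3 was high, and without it the difference was 0.36, while the lane that held both groups gave 1.00. The 4 of 5 crypt and Paneth markers with a row were also higher, Defa24 and Lyz1 as DEGs. They summed to 78.5, 170.9 and 105.4 CPM in RYGB and 16, 28, 51.2 and 29 CPM in sham libraries. The 3 of 8 B and T cell markers with a row were DEGs and lower, with sums of 4 to 9.8 CPM against 23.4 to 35.9 CPM. The 8 enterocyte markers, 3 higher and 5 lower with Lct and Apoa4 as lower DEGs, summed to 40570 to 69690 CPM against 72750 to 94400 CPM. The part of these cells in the Tfrc values was not tested. Slc40a1 had 0.7, 5.3 and 7.1 CPM in RYGB and 1.6, 21.1, 2.6 and 3.7 CPM in sham jejunum, where sham 2 was also the library with the most Pdx1 (7.4 CPM, against 0.5 to 4.1 CPM in the others). Slc11a2 (0.39 ± 0.27), Heph (0.25 ± 0.21), Fth1 (-0.34 ± 0.34) and Ftl1 (-0.33 ± 0.24) had differences with adjusted p from 0.438 to 0.608 by limma.

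Other genes of iron handling in the jejunum held DEGs, to be read against the 9.75% of all genes called there. Of 8 other iron transporters and reductases, 3 were DEGs higher and 1 lower. The iron-binding defence protein Ltf (lactoferrin, 15.4 ± 8.64 against 3.90 ± 1.89 CPM), Lcn2 (4.07 ± 1.72 against 0.12 ± 0.05 CPM) and the mitochondrial carrier Slc25a28 (45.2 ± 2.61 against 20.4 ± 5.23 CPM) were higher, and Slc25a37 was lower (79.1 ± 20.3 against 135.8 ± 22.3 CPM). Of 16 haem genes, Hmox1, which breaks haem down, was higher (1.42 ± 0.31), and the haem and folate carrier Slc46a1 (-1.35 ± 0.22) and the haem exporter Flvcr1 (-2.15 ± 0.33) were lower. Of 9 genes of iron sensing and ferritin turnover, Aco1, which encodes iron regulatory protein 1, was lower (209.5 ± 16.2 against 345.3 ± 41.3 CPM, adjusted p = 0.0238 by limma). It was the only DEG of that list, and none of the 4 genes with a printed element was a DEG in the jejunum. An element in a 5' UTR acts on translation, which the mRNA levels of Fth1, Ftl1 and Slc40a1 cannot show. Of 12 hypoxia target genes, 5 were DEGs and all 5 were higher, among them Adm (2.27 ± 0.58), the glucose transporter Slc2a1 (1.81 ± 0.25), Car9 (1.74 ± 0.36) and Hif1a itself (1.51 ± 0.40). Of 6 STAT3 and acute phase genes 4 were higher, with Saa3 (3.45 ± 0.30), Saa1 (3.31 ± 0.40), Lcn2 and the feedback inhibitor Socs3 (0.97 ± 0.19). Only these 6 of the 16 genes on that list had a row in the jejunum, Lcn2 through its RYGB libraries alone. Of 10 genes of the BMP arm the signal transducer Smad5 was lower (-0.73 ± 0.20).

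In the ileum, 1 of the 6 genes was a DEG, against 6.05% of 10735 genes and 1.64% called higher. Ftl1 had 106.2, 120.8, 82.8, 78.5 and 72.2 CPM in RYGB libraries 1 to 5 and 62.9, 61.4, 46.5, 52.7 and 66.1 CPM in sham libraries 1 to 5. Every RYGB library was above every sham library, as for 9.34% of genes in either direction. The log2 difference was 0.64 ± 0.16 (adjusted p = 0.0299 by limma), and the call was lost in 5 of the 10 fits that left out a library, namely RYGB 1 and 2 and sham 1, 3 and 4, with adjusted p of up to 0.0811. No lane held ileum libraries of both groups, and the effect of lane there cannot be told apart from that of surgery. Its partner Fth1 differed by 0.17 ± 0.21 (adjusted p = 0.628), Tfrc by -0.11 ± 0.53 (adjusted p = 0.916), Slc11a2 by -0.17 ± 0.24 (adjusted p = 0.690) and Heph by -0.13 ± 0.14 (adjusted p = 0.601), all by limma. Slc40a1 stayed at or under 4.4 CPM in all ileum libraries (-0.45 ± 0.24, adjusted p = 0.248 by limma). Scaling moved the split of DEGs in the ileum from 176 higher and 474 lower to 329 and 372, and Ftl1 remained a DEG (0.75, adjusted p = 0.0251 by limma). The other iron, haem, BMP and STAT3 lists held no DEG in the ileum, and of 12 hypoxia target genes Egln3, an oxygen-sensing hydroxylase, was higher (1.64 ± 0.33, adjusted p = 0.0145 by limma).

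In WAT, 3 of the 9 genes were DEGs and all 3 were lower in RYGB, against 24.1% of 13379 genes tested and 9.23% called lower. Trf, which fat cells secrete, had 95.5, 135.4, 87.5 and 62.1 CPM in RYGB and 170.8, 141.1, 206.3 and 158.1 CPM in sham fat. It fell by 0.86 ± 0.22 on the log2 scale (adjusted p = 0.0181 by limma), without overlap. Bmp6 had 24.7, 33.2, 17.4 and 14 CPM in RYGB and 37.3, 38.8, 37.8 and 46.7 CPM in sham fat, and it fell by 0.88 ± 0.24 (adjusted p = 0.0204 by limma). Ftl1 had 182.7, 144, 124.1 and 118.4 CPM in RYGB and 216.9, 182.8, 207.9 and 268.2 CPM in sham fat, and it fell by 0.63 ± 0.17 (adjusted p = 0.0204 by limma). The lowest sham and the highest RYGB library of Ftl1 were 0.1 CPM apart. Without RYGB 3 or without sham 4, only Trf remained called, and without RYGB 4 the fold change of Ftl1 was below 1.5. Groups without overlap were common in WAT, at 41.2% of all genes.

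Tfrc had higher values in RYGB fat. It had 46.3, 59.9, 51.5 and 64.1 CPM in RYGB and 42.9, 37.5, 33.9 and 38.1 CPM in sham fat, with every RYGB library higher. The log2 difference of 0.52 ± 0.12 had an adjusted p of 0.0141 by limma, but the fold change of 1.44 was under 1.5. With it, 4 of the 9 genes had an adjusted p under 0.05, against 37.2% of all genes. Slc40a1 had 25.5, 38.3, 28 and 33.8 CPM in RYGB and 29.1, 63.7, 60.7 and 57.5 CPM in sham fat, and sham 1 alone lay among the RYGB libraries. The log2 difference of -0.69 ± 0.25 had an adjusted p of 0.0562 by limma, and without sham 1 it was -0.94 (adjusted p = 0.00602). Heph (-0.46 ± 0.22, adjusted p = 0.127), Fth1 (-0.27 ± 0.19, adjusted p = 0.282), Slc11a2 (0.14 ± 0.11, adjusted p = 0.315) and Cybrd1 (0.23 ± 0.36, adjusted p = 0.630) were not DEGs by limma.

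Markers of several cell types differed between the same fat samples. All 8 B and T cell markers were higher in RYGB, and their sum was 743.4, 1056, 1330 and 2080 CPM in RYGB and 10.2, 11.5, 15 and 17 CPM in sham fat. The 5 adipocyte markers, of which Lep was a DEG, summed to 8885, 9563, 6040 and 4104 CPM in RYGB and 10800, 8380, 9276 and 7781 CPM in sham fat. RYGB 4 had the most lymphocyte markers, the least adipocyte markers and the lowest Trf, Bmp6 and Ftl1 and the highest Tfrc of the RYGB libraries. The part of these cells in the differences was not tested. Of 14 macrophage markers 4 were higher and 4 were lower. The 6 sinusoidal endothelial markers with a row summed to 654.9 to 796.9 CPM in RYGB and 939 to 1213 CPM in sham fat, without overlap and with none at 0. Of these, Stab1 (-0.95 ± 0.23), the general endothelial marker Pecam1 (-0.66 ± 0.19) and Oit3 (-0.62 ± 0.21) were lower and Stab2 (1.79 ± 0.47) was higher. The part of endothelial cells in the lower Bmp6, Trf and Ftl1 was not tested either. Within the lanes that held both groups, with 2 or 1 libraries of each, the log2 differences were -0.51 and -1.33 for Trf, -0.64 and -1.67 for Bmp6, -0.57 and -1.17 for Ftl1, and 0.46 and 0.735 for Tfrc. Scaling moved the split of DEGs in WAT from 1996 higher and 1235 lower to 1649 and 1639, and the same 3 genes and Slc40a1 (-0.79, adjusted p = 0.0309 by limma) were then called.

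Most of the other iron lists in WAT held a smaller share of DEGs than the 24.1% of all genes. Steap4 was lower (327.4 ± 90.8 against 541.6 ± 120.2 CPM) and Slc25a37 higher (93.5 ± 26.1 against 54.8 ± 9.32 CPM), the only DEGs of 13 other transporters and reductases. Of 18 haem genes, Hmox1 (-0.68 ± 0.23) and the lysosomal haem transporter Slc48a1 (-0.71 ± 0.19) were lower. Of 12 genes of the BMP arm, the receptor Acvr1 (-0.64 ± 0.14) and the co-receptor Neo1 (-0.75 ± 0.22) were lower. Among 6 BMP target genes Smad6 (-0.79 ± 0.26) and Atoh8 (-0.88 ± 0.23) were lower and Id2 (0.79 ± 0.25) was higher. Of 8 STAT3 and acute phase genes Socs3 was higher (1.17 ± 0.36). Of 12 hypoxia target genes 3 were higher and 4 lower, with Ankrd37 (1.80 ± 0.27), Adm (-1.14 ± 0.34), Epas1 (-0.88 ± 0.22) and Pdk1 (0.86 ± 0.20) as the largest. None of 9 genes of iron sensing and ferritin turnover was a DEG. Of the 7 lists of iron, haem, BMP, STAT3 and hypoxia genes, those of hypoxia targets, with 7 of 12, and BMP targets, with 3 of 6, held a larger share.

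In muscle no gene was a DEG (0 of 11966, 0%), while 14.6% had an unadjusted p under 0.05. Of the 8 iron genes tested, 4 had an unadjusted p under 0.05 and 3 did not overlap between groups, against 7.4% of all genes. Bmp6 had 12.1, 16.4, 16.8 and 11.6 CPM in RYGB and 9.1, 7.5, 9.1 and 7.4 CPM in sham muscle, all higher in RYGB. The log2 difference was 0.70 ± 0.14 (adjusted p = 0.112 by limma), and it was a DEG without RYGB 4 (0.79, adjusted p = 0.0320), in a fit that called 210 genes. Tfrc, the most abundant in muscle of all tissues, had 257.2, 190.4, 109.8 and 254.4 CPM in RYGB and 356.2, 392.2, 413.5 and 263.7 CPM in sham muscle. Every RYGB library was lower, with a log2 difference of -0.87 ± 0.26 (95% interval -1.45 to -0.28, adjusted p = 0.184 by limma). The 5 skeletal muscle markers summed to 89430 to 114600 CPM in RYGB and 113900 to 147100 CPM in sham muscle. RYGB 3 was lowest in that sum and in Tfrc. Of these 5 markers, 3 had negative and 2 had positive log2 differences, with a median of -0.03. The lower sum was thus not shared by all of them. The 4 smooth muscle markers with a row, most of whose sum was Des, which skeletal muscle also makes, summed to 3781 to 4073 CPM in RYGB and 2666 to 2891 CPM in sham muscle. None of these 9 markers was a DEG or at 0 in any library, and their part in the Tfrc values was not tested. Slc11a2 had 33.1, 31.9, 29.4 and 39.3 CPM in RYGB and 43.5, 41, 43.8 and 40.5 CPM in sham muscle, also without overlap (-0.33 ± 0.10, adjusted p = 0.167 by limma). In the lane with 2 libraries of each group the differences were 0.70 for Bmp6, -0.75 for Tfrc and -0.37 for Slc11a2. None of the 3 passed the test.

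Slc40a1 had 56.9, 53.9, 55.8 and 47.7 CPM in RYGB and 51.2, 32, 27.3 and 41.8 CPM in sham muscle, with sham 1 inside the RYGB range (0.52 ± 0.17, adjusted p = 0.216 by limma). Fth1 (-0.17 ± 0.11, adjusted p = 0.533) and Ftl1 (0.0008 ± 0.14, adjusted p = 0.999) had differences close to 0 by limma. Heph and Trf were low except in sham 3, with 8.2 and 13.3 CPM there against at most 2.8 and 3.4 CPM in the other 7 libraries. Sham 3 also had the most fat, with 5 adipocyte markers that summed to 593.7 CPM against 27.2 to 198.8 CPM in the others. Without sham 3 the log2 differences of Heph and Trf turned from -0.39 and -0.34 to 0.079 and 0.23. Cybrd1 had a mean under 1 CPM over the 8 libraries and was not tested. None of the other iron, haem, hepcidin, STAT3 and hypoxia lists held a DEG in muscle.

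**Figure D5:**
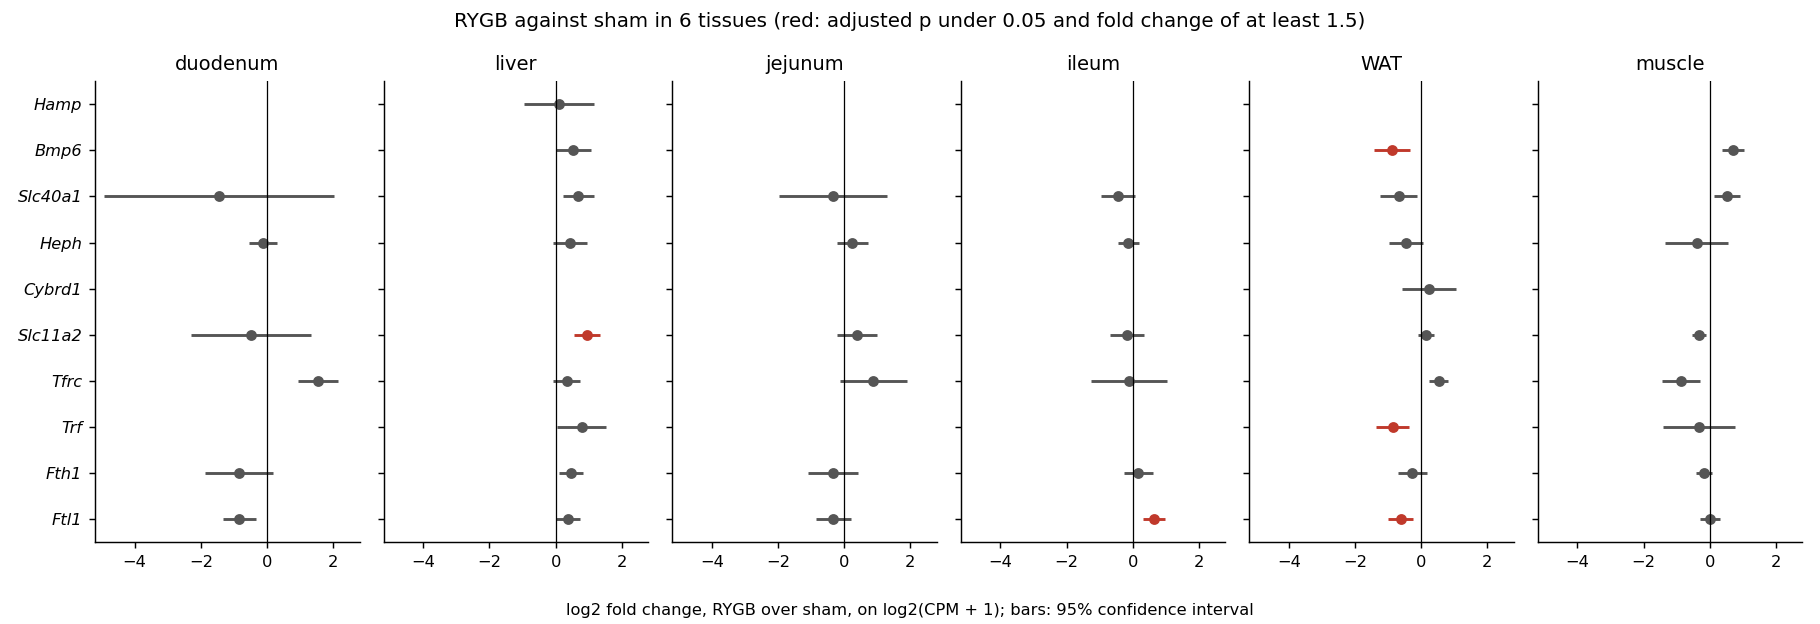
Log2 fold change of RYGB over sham (points) with 95% confidence intervals (lines) for the tested iron genes in each tissue, on log2(CPM + 1), with DEGs in red. The 5 red points are Slc11a2 in liver, Ftl1 in the ileum and Trf, Bmp6 and Ftl1 in WAT, and the interval of Slc40a1 in the duodenum is the widest.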

How the data were processed

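The authors deposited 1 table per tissue with 1 column per library. The values are CPM, rounded by the authors to 0.1, and the jejunum and ileum columns are the same signal with genes on repeated lines. HTSeq and GRCm38 stand in the submitters' processing notes, and the aligner and annotation are not given in the sources used here. Deposited lines that repeated an identifier held equal values and were merged, and 12 incomplete liver lines were left out. Each listed gene had 1 CPM or more in as many libraries as the smaller group holds, or in more. Read totals are unknown, so no counting interval is given.

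Genes whose mean reached 1 CPM were tested with limma 3.58.1 (R 4.3.3, empirical Bayes with trend) on log2(CPM + 1), RYGB against sham within a tissue, with Benjamini-Hochberg adjustment. The fit was tested on simulated data. The alternatives were a pseudocount of 0.1, no minimum, scaling, lane, the replicate block and leaving out each library. Leaving out duodenums with Cela1 above 100 CPM was chosen after seeing the data.

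The members and lists were chosen with earlier results of these data known. All 10 members were named. From each list at most the 4 DEGs of largest change per tissue were named, plus Hamp2, Hfe, Tfr2, Hjv (listed as Hfe2), Tmprss6 and Erfe, which had no row. Pdx1, which was not a listed marker, was named outside this rule. So were Cela1, Olfm4, Mki67, Vil1, Lct, Apoa4 and Fabp1 in the duodenum, Des in muscle and Smad6 and Saa1 in liver, none of them a DEG there. For likeness the 5 genes of highest r were named.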

Additional observations from a re-analysis of the deposited data

Results flagged for a closer look

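In 5 of 78 groups of 4 or 5 libraries, 1 library lay apart by Dixon's ratio, where chance gives about 3.9. The ratio is the gap to the nearest library over the range of the group, on log2(CPM + 1). It was 0.891 for Slc40a1 in liver RYGB 2 (478.3 CPM, next 270.3 CPM), 0.851 for Bmp6 in liver sham 1 (0.8 CPM, next 2.4 CPM) and 0.868 for Slc40a1 in WAT sham 1 (29.1 CPM, next 57.5 CPM). It was 0.855 for Fth1 in muscle RYGB 3 (1001.7 CPM, next 1258.8 CPM) and 0.831 for Heph in muscle sham 3 (8.2 CPM, next 1.8 CPM).

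For 4 genes the groups did not overlap in either of 2 tissues and lay in opposite directions. These differences between tissues were not tested because the tables were normalised separately. How many of all genes do the same was not counted, so the pattern cannot be called particular to iron genes. In a single tissue, groups without overlap made up 41.2% of all genes in WAT, 16.4% in liver, 15.6% in the duodenum, 9.34% in the ileum and 7.4% in muscle. The log2 fold changes were 2.41 apart for Tfrc between the duodenum (higher in RYGB) and muscle (lower), and 1.39 apart between WAT (higher) and muscle. They were 1.27 apart for Slc11a2 between liver (higher) and muscle (lower). For Ftl1 the ileum (higher) was 1.48 from the duodenum (lower) and 1.27 from WAT (lower). For Bmp6 muscle (higher) was 1.59 from WAT (lower).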

How the results depend on the processing

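With the replicate number of the labels as a block, the duodenum had 1 iron gene called (Tfrc, adjusted p = 0.0391 by limma) and 268 genes. The jejunum had 1 iron gene called (Tfrc, adjusted p = 0.0351 by limma), and muscle had 184 genes. Sham 4 was unpaired in the duodenum and in the jejunum and so without weight. In WAT, Slc40a1 was added (adjusted p = 0.0215). The labels do not say whether the numbers pair the mice. Deviations of same-numbered libraries correlated between -0.281 and 0.389, and no tissue had every correlation over 0.1. With so few libraries in a group, these correlations cannot decide the question. With lane as a covariate liver had 2 iron genes called, the jejunum had 469 genes, and Heph (0.20) and Trf (0.53) in muscle turned above 0. In the jejunum RYGB 2 was alone in its lane and so without weight, which gave the same differences as leaving it out. In muscle only the lane that held both groups carried weight. Lane could not be fitted in the duodenum, which was run in 1 lane, nor in the ileum. With scaling muscle had 2 genes called, and Hamp in liver (-0.049) and Ftl1 in muscle (-0.058) turned below 0. Without the 3 duodenums with Cela1, 0 genes were called and Slc11a2 was 0.31. What caused these changes was not tested.

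Leaving out 1 library at a time, genes called ranged from 0 to 757 in the duodenum, 329 to 1204 in liver, 462 to 1015 in the jejunum, 312 to 766 in the ileum and 0 to 210 in muscle. Iron genes called ranged from 0 to 2 in the duodenum, 0 to 1 in the ileum, 1 to 4 in WAT and 0 to 1 in muscle. The log2 fold changes that crossed 0 ranged from -0.25 to 0.012 for Heph and -1.01 to 0.28 for Slc11a2 in the duodenum, -0.30 to 0.48 for Hamp in liver, -0.77 to 0.36 for Slc40a1 in the jejunum, -0.51 to 0.21 for Tfrc and -0.31 to 0.0009 for Slc11a2 in the ileum, and -0.093 to 0.10 for Ftl1, -0.61 to 0.079 for Heph and -0.67 to 0.23 for Trf in muscle. Of the 5 calls, Slc11a2 in liver and Trf in WAT held in all 13 alternatives of their tissue.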
